A study of Homo sapiens with 72 samples.

Results

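The transcripts of 9 genes of the c-Jun N-terminal kinase (JNK) pathway were followed across all compounds and doses of the series. The rule names the genes and uses no measured value, although the set was proposed with earlier results of these data known. They are the JNK kinases MAPK8, MAPK9 and MAPK10, the MAP2 kinases MAP2K4 and MAP2K7, the MAP3 kinases MAP3K5 and MAP3K11, and the scaffolds MAPK8IP1 and MAPK8IP3, out of 60371 genes listed for every library. Population RNA-seq came from 72 wells of U2OS cells, an established human osteosarcoma line. DMSO, the solvent of the compounds, was given to 18 wells. The other 54 wells held 6 compounds, each in 3 wells at each of the doses 100, 1000 and 10000 nM, and RNA was taken after 12 h. The compounds were pyrazolanthrone, an inhibitor of JNK kinases, triptolide, an inhibitor of transcription that binds a subunit of the general factor TFIIH, homoharringtonine, an inhibitor of translation elongation, nilotinib, an inhibitor of the ABL tyrosine kinase, MK-2206, an allosteric inhibitor of AKT, and miglitol, an inhibitor of intestinal alpha-glucosidases. The labels number the wells but do not say whether they were separate cultures, so p-values measure the spread between these wells, which may be technical, and all results are of 1 cell line at 1 time point.

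JNK signalling is a cascade of kinases. A MAP3 kinase, switched on by stress, cytokines or small GTPases, phosphorylates MAP2K4 and MAP2K7, which in turn phosphorylate JNK on a threonine and a tyrosine of its activation loop. Active JNK phosphorylates transcription factors, above all c-Jun, and scaffold proteins hold kinases of successive tiers together. The activity of the pathway is set by phosphorylation, which RNA-seq does not measure, so the values here are the supply of transcripts for its parts and not the state of the pathway.

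The genes of the cascade differ strongly in base composition, which bears on how their levels varied between libraries (given further on). The part of the active site that they share is shown by 63 bases of coding sequence for each of the 7 kinase members, from 1 exon each, in GRCh38 coordinates, on the strand of the gene. The capitals mark the codons of the DFG motif, Asp-Phe-Gly, which binds magnesium in the active site of protein kinases. The sequences come from the reference genome and GENCODE release 44.
MAPK8 (chr10:48420182-48420244, plus strand, 44.4% GC): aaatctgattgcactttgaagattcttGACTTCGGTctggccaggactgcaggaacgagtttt
MAPK9 (chr5:180249049-180249111, minus strand, 54.0% GC): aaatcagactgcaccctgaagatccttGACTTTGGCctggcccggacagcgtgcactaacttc
MAPK10 (chr4:86101128-86101190, minus strand, 49.2% GC): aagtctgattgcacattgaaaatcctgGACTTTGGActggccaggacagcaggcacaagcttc
MAP2K4 (chr17:12113259-12113321, plus strand, 44.4% GC): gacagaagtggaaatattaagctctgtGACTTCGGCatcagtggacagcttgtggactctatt
MAP2K7 (chr19:7911058-7911120, plus strand, 65.1% GC): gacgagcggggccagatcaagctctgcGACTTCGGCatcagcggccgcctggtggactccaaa
MAP3K5 (chr6:136611304-136611366, minus strand, 46.0% GC): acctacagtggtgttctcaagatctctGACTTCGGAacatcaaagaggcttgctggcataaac
MAP3K11 (chr11:65608354-65608416, minus strand, 55.6% GC): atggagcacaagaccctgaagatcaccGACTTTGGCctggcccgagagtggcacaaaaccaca

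The windows of the 3 JNK kinases shared 47 to 51 of their 63 bases, and those of MAP2K4 and MAP2K7 shared 45. MAP2K4 and MAP2K7 thus have closely related active sites but differ in how they spell them. The third codon positions of the coding sequence held 43.1% GC in MAP2K4 and 86.6% in MAP2K7. Over all annotated transcripts of a gene, GC content was 37.6% for MAPK8, 42.3% for MAP2K4, 43.6% for MAPK9 and 46.8% for MAP3K5. It was 62.7% for MAP2K7, 62.9% for MAP3K11, 63.1% for MAPK8IP3 and 64% for MAPK8IP1, against a median of 49.0% over 11156 expressed genes. MAPK8 stood at percentile 3.3 of these genes and MAPK8IP1 at percentile 95.9. A window need not follow its gene, since that of MAPK9 (54.0%) lay near that of MAP3K11 (55.6%).

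Sums of expected counts, the depth of a library, ranged from 70767 to 68296309 with a median of 38369495. The lowest 3 were triptolide 100 nM replicate 2, DMSO replicate 10 and triptolide 1000 nM replicate 1, and these are called shallow. The 13 mitochondrial mRNAs took 0.14% to 0.37% of the counts in DMSO wells and 1.01% to 1.15% in triptolide 10000 nM wells. Of 8 osteoblast lineage markers, COL1A1, SPARC, RUNX2 and ALPL had medians of 452 TPM, 2137 TPM, 3.81 TPM and 3.79 TPM in DMSO wells, whereas BGLAP, COL1A2, SP7 and IBSP were at or below 0.425 TPM. Of 8 markers of other cell types, SYP (11 TPM) and EPCAM (2.38 TPM) had medians above 1, and ALB and CD3E had medians of 0.

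In untreated cells MAP3K11, the mixed-lineage kinase MLK3, had the highest median of the 9 transcripts and MAPK10, the JNK3 kinase known from brain and heart, the lowest. On the length-normalised TPM scale, the lowest, median and highest of the 18 DMSO wells were 45.9, 60.2 and 82.8 for MAP3K11. They were 26.6, 33.6 and 81.4 TPM for MAPK8IP1, the scaffold JIP1, 17.4, 31.7 and 97.4 for MAPK8 (JNK1), and 14.5, 28.6 and 35.8 for MAPK9 (JNK2), so the highest well of MAPK8 lay above that of MAP3K11. Neither MAPK8IP1 and MAPK8 nor MAPK8 and MAPK9 kept an order, since the first of each was higher in 10 of 18 wells. MAP2K4 (MKK4) and MAP2K7 (MKK7), the activating kinases of JNK, had medians of 17.3 TPM and 16.8 TPM and also changed places, with MAP2K4 higher in 10 of 18 wells. MAPK8IP3, the scaffold JIP3, followed at 10.6 TPM and MAP3K5, the stress-responsive kinase ASK1, at 1.56 TPM.

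MAPK10 had a median of 0.195 TPM in DMSO wells and a highest value of 0.9 TPM in any well. Its expected count was 0 in 8 wells and reached 10 at most, so it failed the filter on low counts in all comparisons and has no test. MAPK8 and MAPK9 together held nearly all JNK transcripts. MAPK8 took 40.1% to 74.3% of the JNK TPM in DMSO wells, with a median of 54.5%, and MAPK10 took 0.256% at the median. The other 8 genes passed the filter in all comparisons, and all counts below are of these 8.

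**Figure D1:**
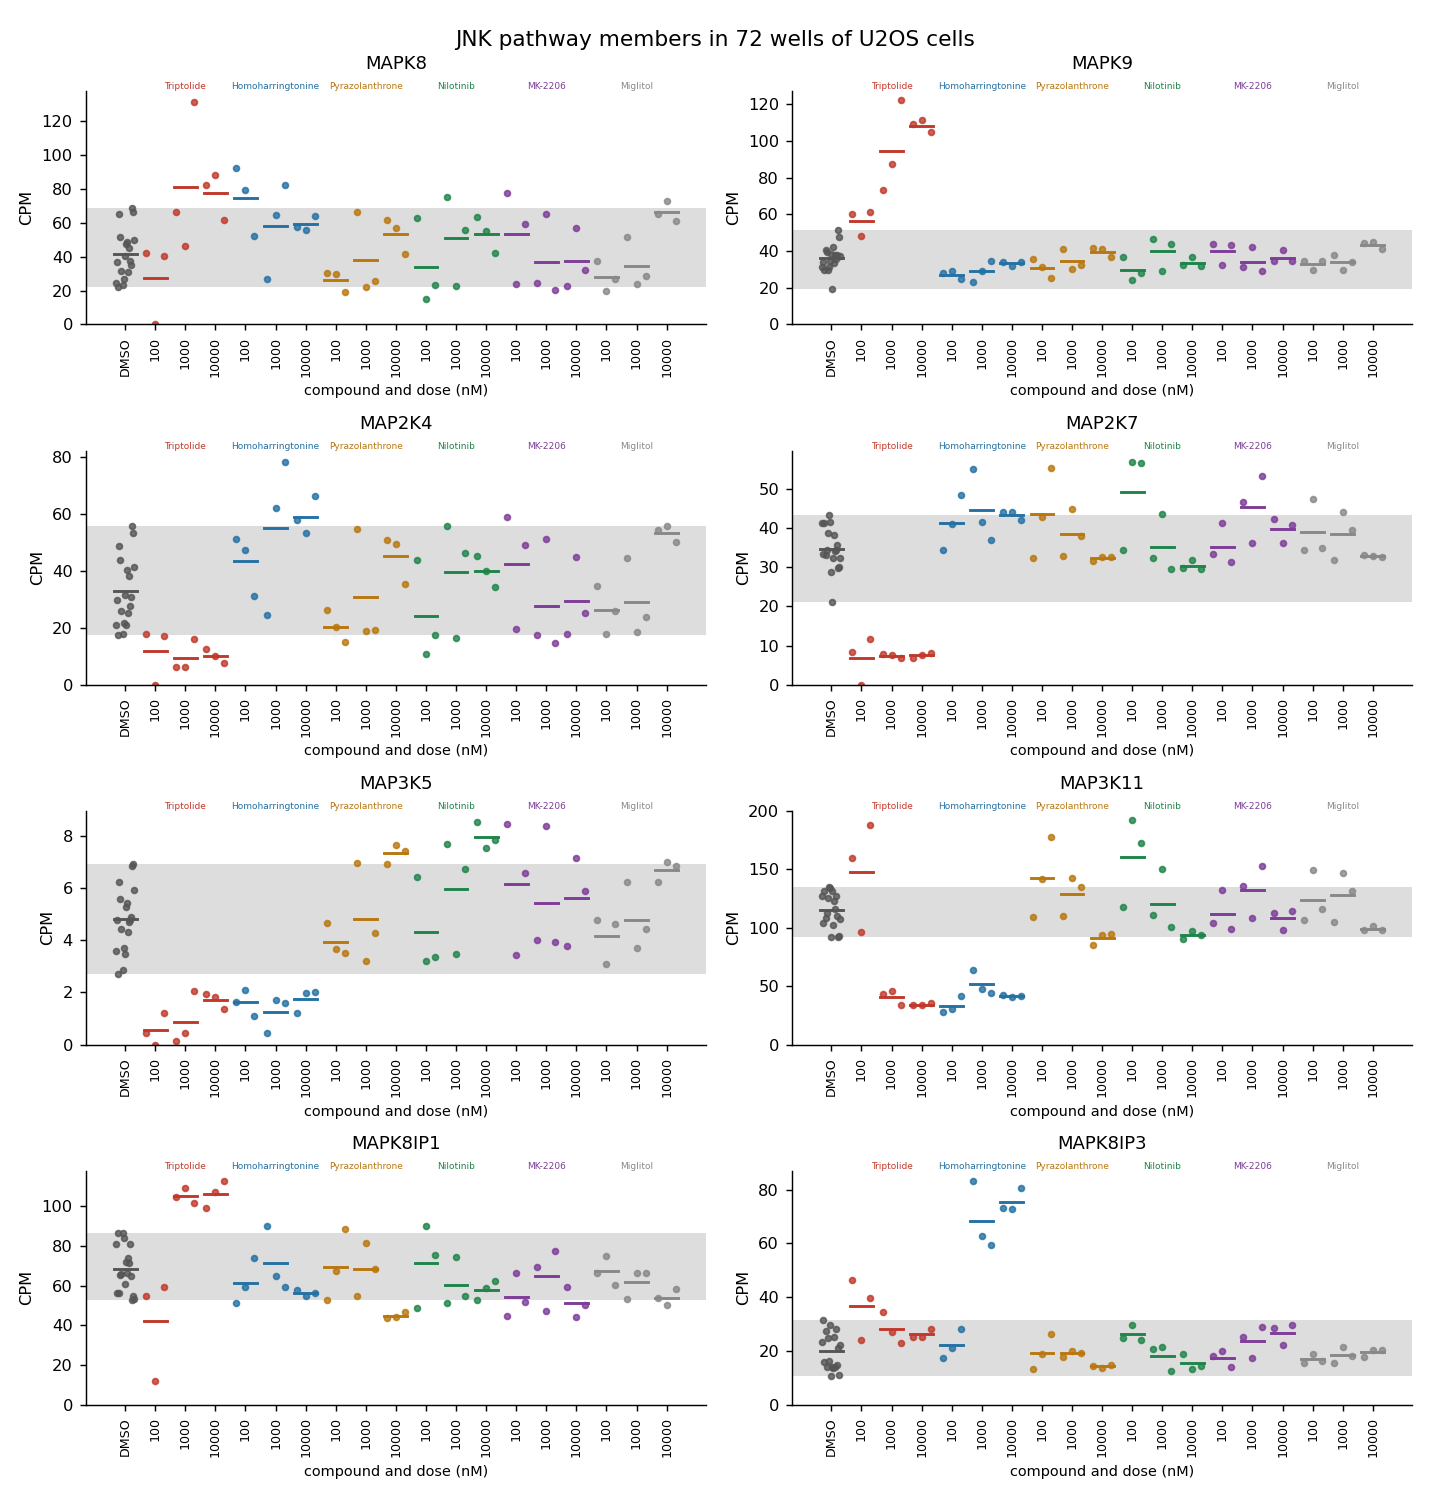
Levels in CPM (counts scaled to library size with TMM factors) of the 8 tested members in each of the 72 wells, by compound and dose in nM. Points are wells, bars are group means and the grey band is the range of the 18 DMSO wells. MAP2K7 in triptolide, MAP3K5 in triptolide and homoharringtonine, and MAPK8IP3 in homoharringtonine at 1000 nM and 10000 nM lie outside the band in all wells.

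The spread between untreated wells was wide for the AT-rich members, and it followed a property of the library. MAPK8 ranged from 22.2 CPM to 68.9 CPM among the 18 DMSO wells, a 3.10-fold range, and MAP2K4 from 17.4 CPM to 55.9 CPM, whereas MAP3K11 ranged only from 92.3 CPM to 135 CPM. For each library a GC slope was computed from 11156 genes outside the lists used here, as the change of log2 expression, relative to the mean of all wells, for each 10 percentage points of transcript GC content. It ran from -0.40 to 0.315 in DMSO wells. Over the 18 DMSO wells the log2 CPM of MAPK8 fell with the slope with Pearson's r of -0.963 and Spearman's rho of -0.959. This held without the 2 wells farthest from the median slope (r of -0.958). MAP2K4 (r of -0.933, rho of -0.948), MAP3K5 (r of -0.857, rho of -0.829) and MAPK9 (r of -0.645, rho of -0.81) fell with it as well.

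The GC-rich MAP3K11 (r of 0.86, rho of 0.853), MAPK8IP1 (r of 0.89, rho of 0.909) and MAP2K7 (r of 0.635, rho of 0.835) rose with the slope in the same wells. For these 7 of 8 members the permutation p of r, adjusted over the 8, was between 1.6e-05 and 0.0044. The first comes from an unadjusted p of 1e-05, the smallest that 100000 permutations can give. For MAPK8IP3 the relation did not pass (r of 0.245, rho of 0.344, adjusted permutation p of 0.33), although its levels ranged from 10.7 CPM to 31.3 CPM. Without the 2 farthest wells r was -0.441 for MAPK9, and between 0.625 and 0.906 in size with unchanged sign for MAP2K4, MAP2K7, MAP3K5, MAP3K11 and MAPK8IP1. Without the shallow DMSO well r was -0.919 for MAPK9 and 0.897 for MAP2K7. The slope is computed from the same libraries as the levels, and the relation was looked for after the data had been seen. Values from fits with the GC slope as a covariate are therefore also given below for the results they moved most.

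**Figure D2:**
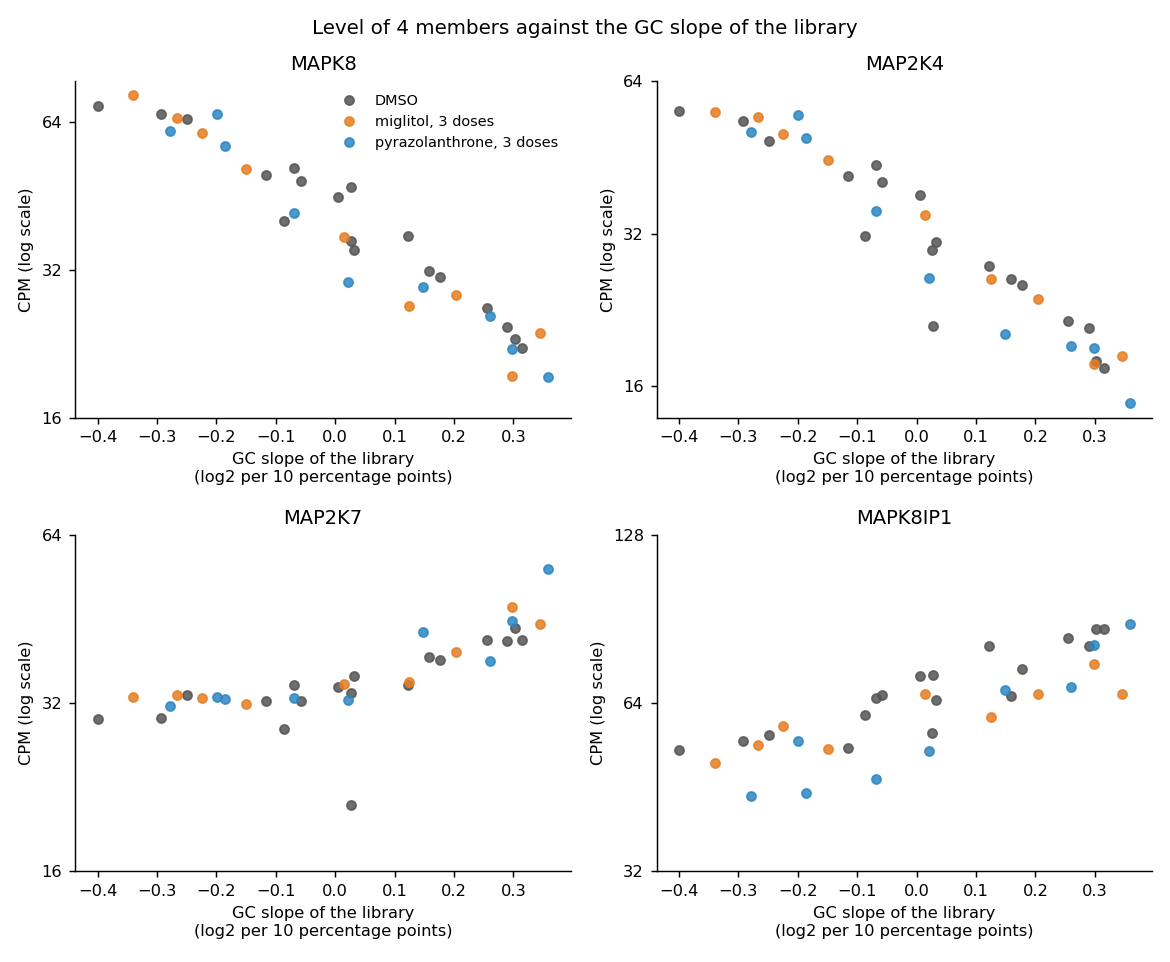
Level of MAPK8, MAP2K4, MAP2K7 and MAPK8IP1 (CPM, log scale) against the GC slope of the library (log2 per 10 percentage points of GC) in 18 DMSO, 9 miglitol and 9 pyrazolanthrone wells. The AT-rich MAPK8 and MAP2K4 decline from left to right and the GC-rich MAP2K7 and MAPK8IP1 climb, in all 3 sets of wells.

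At 1000 nM and 10000 nM of triptolide both MAP2 kinases and both MAP3 kinases were lower than in DMSO, and MAPK9, MAPK8 and MAPK8IP1 were higher under the main scaling but lower when libraries were scaled to the 13 mitochondrial mRNAs. At 100 nM MAP3K11 was higher and MAPK8 and MAPK8IP1 did not pass. A member is said to have passed, and to have risen or fallen, where its adjusted p was under 0.05 in edgeR's quasi-likelihood test against the 18 DMSO wells, with Benjamini-Hochberg adjustment over all genes tested. By this measure 6 of 8 members passed at 100 nM, 7 at 1000 nM and 7 at 10000 nM, where 3 rose and 4 fell. The background was high, since 56.8%, 67.4% and 71.8% of all tested genes passed at these doses. Of the members that passed, 3, 5 and 5 also had a log2 fold change beyond 1 in either direction, against 32.4%, 44.2% and 46.4% of all genes. Levels in bulk wells do not tell fewer transcripts per cell from fewer cells that carry them.

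MAP2K7 fell most evenly. Its DMSO wells had a lowest, median and highest level of 21 CPM, 34.3 CPM and 43.5 CPM. Triptolide wells read 8.38 CPM, 0 and 11.7 CPM at 100 nM, 7.72 CPM, 7.44 CPM and 6.77 CPM at 1000 nM, and 6.92 CPM, 7.44 CPM and 7.99 CPM at 10000 nM. All 9 wells lay below all DMSO wells, but the 0 was the library of 70767 counts, where few reads of the gene could be drawn at any level. The lowest DMSO level was 28.8 CPM without the shallow DMSO well. The log2 fold changes were -1.84 ± 0.20 (SE), -2.28 ± 0.17 and -2.28 ± 0.16, with adjusted p of 4.4e-08, 1e-11 and 2.4e-12 in edgeR.

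MAP2K4 fell as well, from a DMSO median of 30.3 CPM to 12.6 CPM, 10.2 CPM and 7.60 CPM in the wells at 10000 nM and 6.18 CPM, 6.28 CPM and 16 CPM at 1000 nM. These 6 wells were below the lowest DMSO well (17.4 CPM). At 100 nM the levels were 17.9 CPM, 0 (the library of 70767 counts) and 17.1 CPM, so 1 well reached the DMSO range. The log2 fold changes were -0.95 ± 0.36, -1.76 ± 0.36 and -1.76 ± 0.33, with adjusted p of 0.027, 0.00013 and 4e-05 in edgeR. The call at 100 nM was lost without replicate 1 (adjusted p of 0.11) and without replicate 3 (adjusted p of 0.12), and the value was -0.40 (0.011) with the GC covariate.

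MAP3K5 stood below all DMSO wells in all 9 triptolide wells. Its DMSO range was 2.72 CPM to 6.93 CPM, against 1.94 CPM, 1.82 CPM and 1.39 CPM at 10000 nM, 0.129 CPM, 0.465 CPM and 2.06 CPM at 1000 nM and 0.461 CPM, 0 and 1.21 CPM at 100 nM. In log2 fold change this was -2.72 ± 0.41, -2.06 ± 0.38 and -1.52 ± 0.26 with rising dose, with adjusted p of 4.2e-06, 4.3e-05 and 1e-05. These wells hold few reads of the gene, with expected counts of 13, 0 and 11 at 100 nM and 1, 4 and 85 at 1000 nM, where the 0 and the 1 come from shallow libraries. The 0 comes from the library of 70767 counts, which is too shallow to show a fall of so scarce a transcript. The dose trend did not pass (log2 0.52 ± 0.37 per log10 unit of dose, adjusted p of 0.31).

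MAP3K11 went in opposite directions at low and high dose. Against a DMSO range of 92.3 CPM to 135 CPM, the wells at 100 nM read 160 CPM, 96.4 CPM and 188 CPM, so 2 of 3 lay above all DMSO wells and the third was the library of 70767 counts. At 1000 nM they read 43.6 CPM, 46.1 CPM and 33.8 CPM, and at 10000 nM 33.5 CPM, 33.6 CPM and 35.6 CPM, all below the DMSO range. On the log2 scale the changes were 0.53 ± 0.14 (adjusted p of 0.0025), -1.49 ± 0.15 (2.9e-09) and -1.79 ± 0.14 (2.4e-11). The trend over the 9 wells was -1.18 ± 0.16 per log10 unit of dose (adjusted p of 0.00022). The rise at 100 nM was not called without replicate 3 (adjusted p of 0.087) or with library sizes as the only scaling (log2 0.22, adjusted p of 0.2), and turned to -1.16 when libraries were scaled to the mitochondrial mRNAs.

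MAPK9 rose at each dose of triptolide under the main scaling. Its DMSO wells ran from 19.3 CPM over a median of 36.4 CPM to 51.2 CPM, and from 29.7 CPM without the shallow DMSO well. Triptolide wells read 60.3 CPM, 48.2 CPM and 61 CPM at 100 nM, 73.2 CPM, 87.5 CPM and 122 CPM at 1000 nM, and 109 CPM, 111 CPM and 105 CPM at 10000 nM. All wells but the shallow 1 at 100 nM lay above the DMSO range. The log2 fold changes were 0.72 ± 0.15, 1.35 ± 0.14 and 1.52 ± 0.12, with adjusted p of 0.00031, 4.1e-09 and 3.8e-11, but -0.89, -1.08 and -1.22 when libraries were scaled to the 13 mitochondrial mRNAs.

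MAPK8 reached 66.2 CPM, 46.2 CPM and 131 CPM at 1000 nM and 82.1 CPM, 88.3 CPM and 61.7 CPM at 10000 nM, and 3 of these 6 wells lay within the DMSO range of 22.2 CPM to 68.9 CPM. Its log2 fold changes were 0.96 ± 0.28 (adjusted p of 0.0042) and 0.85 ± 0.26 (0.0046), against -0.07 ± 0.33 at 100 nM (0.88). With the GC slope as covariate they were 1.31 ± 0.10 and 1.29 ± 0.08, with 0.52 ± 0.12 at 100 nM, and all passed. The slopes of replicate 2 at 100 nM (0.38) and replicate 1 at 1000 nM (0.323) lay above the highest DMSO slope (0.315). With library sizes as the only scaling the calls at 1000 nM and 10000 nM were lost (log2 0.49 and 0.32), as they were without replicate 3 at 1000 nM (adjusted p of 0.25) and without replicate 2 at 10000 nM (0.051). Scaled to the mitochondrial mRNAs, the values were -1.50 and -1.84.

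MAPK8IP1 wells read 104 CPM, 109 CPM and 102 CPM at 1000 nM and 99.2 CPM, 107 CPM and 113 CPM at 10000 nM, above all DMSO wells (highest 86.7 CPM). In log2 fold change this was 0.61 ± 0.14 (adjusted p of 0.0006) and 0.59 ± 0.14 (0.00069), and fell to 0.16 and 0.05, without a call, with library sizes as the only scaling, and to -1.87 and -2.24 with the mitochondrial scaling. At 100 nM it was -0.33 (0.15), and -0.48 (0.00047) with the GC covariate. MAPK8IP3 rose at 100 nM by a log2 fold change of 1.07 ± 0.29 (adjusted p of 0.0028), lost without replicate 1 (0.062), and had values of 0.47 ± 0.27 (0.13) and 0.34 ± 0.26 (0.25) at the higher doses.

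All rises in triptolide are therefore relative. Scaling to the mitochondrial mRNAs shifted the median of all tested genes by -1.65, -2.47 and -2.75 log2 at the 3 doses, and under it all 8 members were below DMSO at 10000 nM, from -1.22 for MAPK9 to -5.09 for MAP2K7. The falls of MAP2K4, MAP2K7 and MAP3K5 kept their sign under all scalings tried. Which scaling reflects amounts per cell was not tested.

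**Figure D3:**
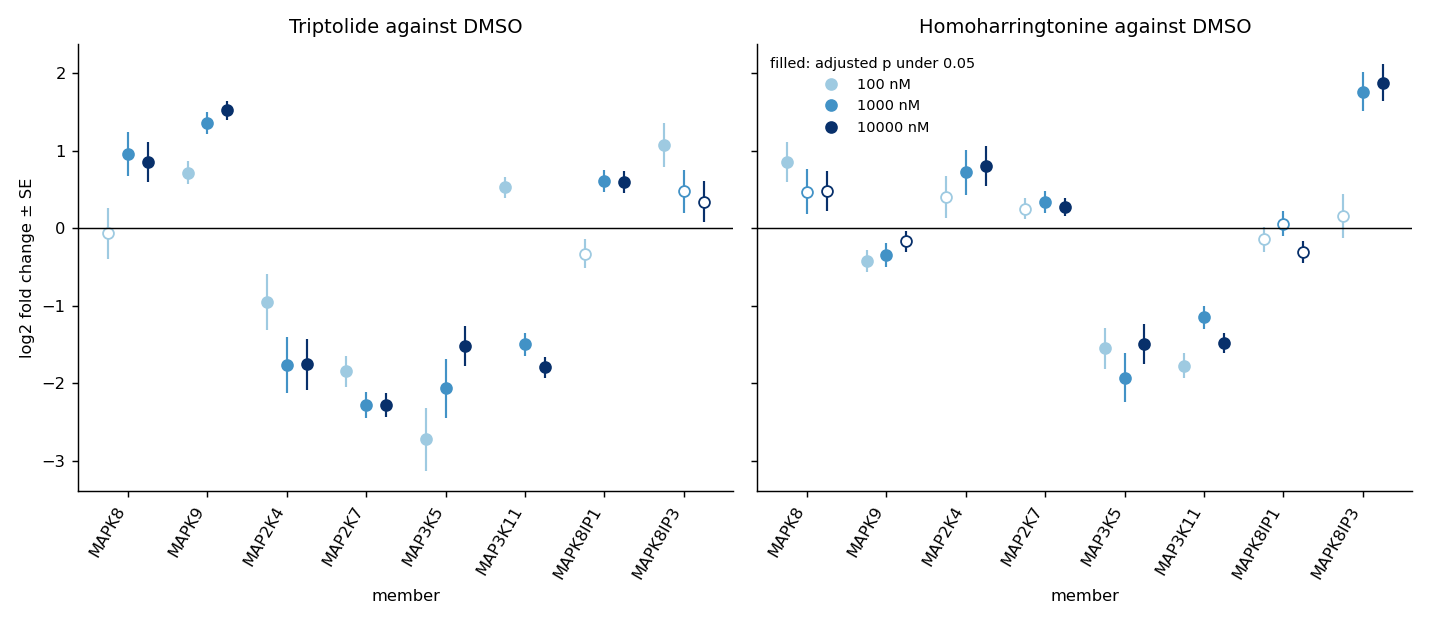
Log2 fold change ± SE against 18 DMSO wells for the 8 tested members in triptolide (left) and homoharringtonine (right) at 3 doses, from edgeR. Filled points passed at an adjusted p under 0.05. MAP2K4 and MAP2K7 lie below 0 at each dose of triptolide and above 0 at each dose of homoharringtonine, where the sign for MAP2K4 depended on the GC covariate at 1000 nM and 10000 nM and that for MAP2K7 on the scaling at 10000 nM, and MAP3K5 lies below 0 in both.

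Homoharringtonine lowered both MAP3 kinases and raised the scaffold MAPK8IP3. Of the 8 members, 4 passed at 100 nM, 6 at 1000 nM and 5 at 10000 nM, against 63.4%, 68.4% and 74% of all tested genes. Those that passed with a log2 fold change beyond 1 were 2, 3 and 3 members, against 34.9%, 42.4% and 47% of all genes.

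MAP3K11 fell at each dose, to 27.8 CPM, 30.4 CPM and 42 CPM at 100 nM, 64.2 CPM, 47.6 CPM and 44.1 CPM at 1000 nM, and 42.8 CPM, 41.1 CPM and 41.8 CPM at 10000 nM. All 9 wells were below the lowest DMSO well (92.3 CPM). On the log2 scale the changes were -1.77 ± 0.16, -1.15 ± 0.15 and -1.49 ± 0.13, with adjusted p of 6.2e-10, 3.1e-07 and 2.4e-10, and -1.55, -0.90 and -1.07 with the GC slope as covariate.

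MAP3K5 fell to 1.65 CPM, 2.11 CPM and 1.09 CPM at 100 nM, 0.445 CPM, 1.70 CPM and 1.6 CPM at 1000 nM and 1.21 CPM, 1.97 CPM and 2.02 CPM at 10000 nM. Again all 9 wells were below all DMSO wells. The log2 fold changes were -1.55 ± 0.26, -1.93 ± 0.31 and -1.49 ± 0.26 (adjusted p of 1.4e-05, 8.1e-06 and 1.6e-05), the last -2.26 with the GC covariate.

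MAPK8IP3, which links JNK kinases to kinesin-1 cargo transport, was raised above the low dose. Its DMSO wells had a lowest, median and highest level of 10.7 CPM, 18.7 CPM and 31.3 CPM, and the wells at 100 nM, with 17.2 CPM, 21.2 CPM and 28.2 CPM, lay inside that range. At 1000 nM the wells read 83.3 CPM, 62.7 CPM and 59.2 CPM and at 10000 nM 73 CPM, 72.7 CPM and 80.7 CPM, all above the DMSO range. In log2 fold change this was 0.15 ± 0.28 (adjusted p of 0.66), 1.76 ± 0.25 (1.1e-06) and 1.87 ± 0.24 (1.5e-07), the last a 3.67-fold rise. The dose trend was 0.85 ± 0.17 per log10 unit of dose (adjusted p of 0.0026). The rise at 10000 nM passed under all 12 alternatives run, with log2 values from 1.6 to 2.13.

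For the other members the values with and without the GC covariate differed. The GC slopes of the 3 wells at 10000 nM were -0.578 to -0.431, below those of all DMSO wells. An adjustment for the slope thus reaches beyond the DMSO range there, and the compound and the slope cannot be told apart. Replicate 3 at 1000 nM (-0.568) and replicate 1 at 100 nM (-0.408) also lay below the lowest DMSO slope (-0.4). MAP2K4 had log2 fold changes of 0.72 ± 0.29 (adjusted p of 0.031) at 1000 nM and 0.80 ± 0.26 (0.0077) at 10000 nM, but -0.02 ± 0.09 and -0.31 with the covariate, where it passed at 10000 nM in the opposite direction (0.016). Its call at 1000 nM was also lost without replicate 2 (0.15) and without replicate 3 (0.34). MAPK8 rose at 100 nM (0.86 ± 0.26, adjusted p of 0.0056) and had values of 0.47 ± 0.29 and 0.48 ± 0.26 at the higher doses, against 0.37, -0.25 and -0.62 with the covariate, all of which passed. Its call at 100 nM was lost without replicate 1 (adjusted p of 0.066).

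MAPK9 fell at 100 nM (-0.42 ± 0.14, adjusted p of 0.013) and 1000 nM (-0.34 ± 0.15, 0.046) and had a value of -0.17 ± 0.14 (0.27) at 10000 nM. Without replicate 3 at 100 nM the adjusted p was 0.076, and without replicate 1 or 2 at 1000 nM it was 0.27 and 0.1. MAP2K7 rose by 0.34 ± 0.14 (0.035) at 1000 nM and 0.28 ± 0.12 (0.034) at 10000 nM, calls that were lost with library sizes as the only scaling (0.18 and 0.077) and without replicate 1 at 1000 nM (0.38) or any of the 3 replicates at 10000 nM (0.069 to 0.12). At 10000 nM its value was -0.04 with the mitochondrial scaling. With the GC covariate MAPK9 was lower and MAP2K7 higher at all 3 doses, and each passed. MAPK8IP1 did not pass at any dose without the covariate, with log2 values from -0.31 to 0.06, and with it had values of 0.37 (8.4e-05) at 1000 nM and 0.25 (0.014) at 10000 nM.

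Set against each other at matched doses, triptolide and homoharringtonine differed most in the 2 MAP2 kinases and in MAPK9 at 1000 nM and 10000 nM under the main scaling, and in MAP3K11 at 100 nM. In edgeR fits of 3 against 3 wells, 6, 5 and 7 of 8 members passed at 100 nM, 1000 nM and 10000 nM, against 65.5%, 66.8% and 88.4% of all genes. With the GC covariate 3, 6 and 4 passed, against 47.9%, 70% and 49.1% of all genes. The GC slopes at 100 nM were 0.187 to 0.38 in triptolide and -0.408 to 0.031 in homoharringtonine. At 10000 nM they were 0.132 to 0.275 and -0.578 to -0.431. Compound and slope therefore cannot be told apart at these doses. Both MAP2 kinases were lower in triptolide, MAP2K7 with log2 differences of -2.02 ± 0.25, -2.63 ± 0.24 and -2.47 ± 0.09, and MAP2K4 with -1.27 ± 0.26, -2.52 ± 0.53 and -2.47 ± 0.16 (adjusted p of 0.00033, 0.003 and 7e-08). With the covariate the values for MAP2K4 were -0.43 (0.2), -1.24 (0.00016) and -0.83 (0.2). MAPK9 was higher in triptolide by 1.21 ± 0.19, 1.69 ± 0.27 and 1.77 ± 0.07 (2.6e-05, 0.00058 and 1.2e-09), with values of -0.42, -0.65 and -0.81 under the mitochondrial scaling.

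MAP3K5 did not pass at any dose, with log2 differences of triptolide from homoharringtonine of -1.07 ± 0.51 (adjusted p of 0.073), -0.28 ± 0.80 (0.78) and 0.06 ± 0.24 (0.82). These errors leave room for sizeable differences at the lower doses. MAP3K11 was higher in triptolide at 100 nM by 2.38 ± 0.21 (2.9e-08) and differed by -0.35 ± 0.22 (0.19) at 1000 nM and -0.22 ± 0.07 (0.015) at 10000 nM. The last call was lost with the GC covariate (log2 -0.48, adjusted p of 0.18), without triptolide replicate 1 or 2 (0.1 for each) and with the replicate number as a block (0.059). MAPK8IP3 likewise changed side, from 1 ± 0.22 (0.00076) to -1.30 ± 0.23 (0.0012) and -1.45 ± 0.08 (1.9e-08). Its value at 100 nM was -0.66 with the mitochondrial scaling and 0.42 (0.2) with the GC covariate. In TPM its means at 100 nM were 9.06 in triptolide and 9.19 in homoharringtonine, so the difference there was in counts and not in TPM.

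The 2 dose trends differed for 3 of 8 members (40.4% of all genes). The trend in triptolide minus that in homoharringtonine was -1.26 ± 0.22 log2 per log10 unit of dose for MAP3K11 (adjusted p of 0.00021), -1.20 ± 0.21 for MAPK8IP3 (0.00022) and 0.53 ± 0.18 for MAPK8IP1 (0.025). For MAPK8IP1 the call was lost without replicate 1, 2 or 3 at all doses (adjusted p of 0.05, 0.09 and 0.23), with DESeq2 size factors (0.087), with library sizes only (0.16) and with the mitochondrial scaling (log2 0.09, 0.84). Within triptolide 3 members had a trend (24.7% of all genes), MAP3K11, MAPK8IP3 (-0.40 ± 0.12, 0.031) and MAPK9 (0.34 ± 0.10, 0.032), but leaving out replicate 1, 2 or 3 at all doses left 1 member, and the trend of MAPK9 was -0.16 with the mitochondrial scaling. Within homoharringtonine MAPK8IP3 was the 1 member with a trend (44% of all genes).

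The ratio of the 2 scaffold transcripts gave a comparison that no scaling between wells can move. MAPK8IP3 and MAPK8IP1 encode JIP3 and JIP1, which are unlike in sequence although both bind JNK and kinesin-1. The log2 ratio of MAPK8IP3 TPM to MAPK8IP1 TPM was -1.82 ± 0.53 (SD, n = 18) in DMSO wells, -0.31 ± 0.13 (SD, n = 3) in homoharringtonine 1000 nM and 0.21 ± 0.17 (SD, n = 3) in homoharringtonine 10000 nM. All 3 wells lay outside the DMSO range at both doses. In an exact two-sided permutation test of 3 against 18 wells the p was 0.0015 for each, the smallest this design allows, and 0.039 after adjustment over 52 tests of 3 ratios. With adjustment for the GC slope the differences from DMSO were 1.38 and 1.79 in place of 1.51 and 2.03. Without replicate 1, 2 or 3 the ratio passed at neither dose (adjusted exact permutation p of 0.091, 0.11 and 0.14 at both). The differences were then 1.44 to 1.57 and 1.93 to 2.08. With 2 against 18 wells a ratio can pass after adjustment only if many of the tests share the smallest p.

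No other ratio passed without that adjustment. MAP2K7 to MAP2K4 differed from DMSO by -0.30 and -0.35 log2 in triptolide at 1000 nM and 10000 nM, with adjusted exact permutation p of 0.66 and 0.61. Without adjustment for the GC slope the falls of both kinases were thus not told apart in size, in a ratio with a wide spread among DMSO wells. MAPK9 to MAPK8 differed by -1.11 in homoharringtonine 10000 nM (adjusted exact permutation p of 0.1), by -1.13 in miglitol 10000 nM (0.091) and by 1.0 in pyrazolanthrone 100 nM (0.091). The SD of the log2 ratio among DMSO wells was 0.79 for MAPK9 to MAPK8 and 0.66 for MAP2K7 to MAP2K4, and both set genes of unlike GC content against each other. After adjustment for the GC slope, MAP2K7 to MAP2K4 passed in 7 combinations and MAPK9 to MAPK8 in none.

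**Figure D4:**
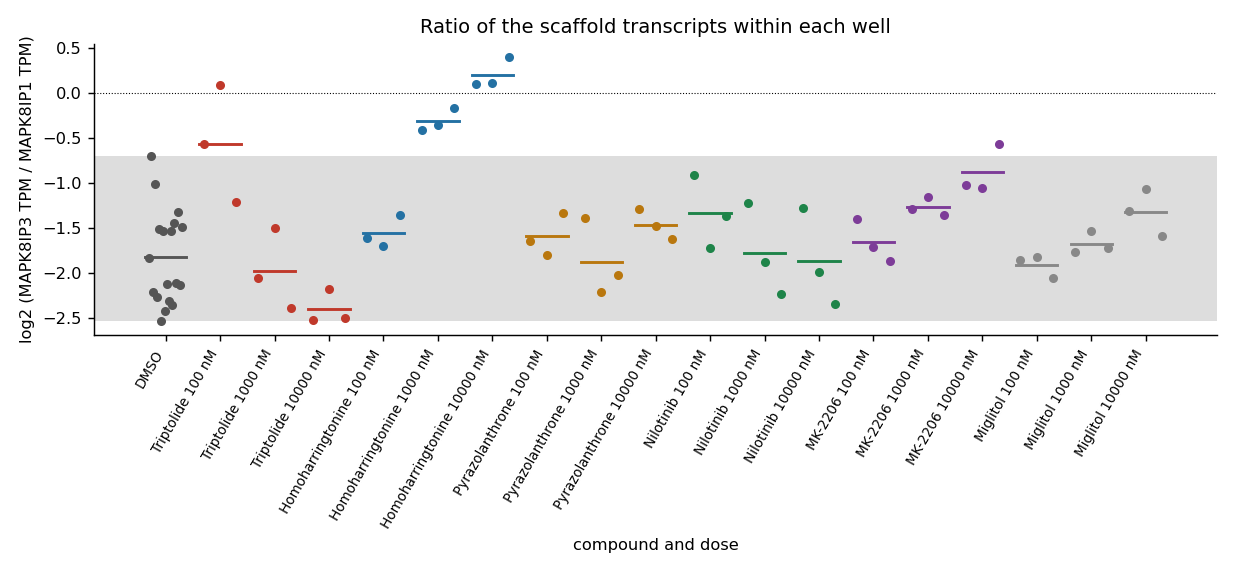
Log2 ratio of MAPK8IP3 TPM to MAPK8IP1 TPM in each well, by compound and dose. Points are wells, bars are group means and the grey band is the range of the 18 DMSO wells (mean of -1.82). Homoharringtonine wells at 1000 nM and 10000 nM lie above the band.

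The mean transcript length of a gene, which RSEM weights by the estimated share of its transcripts, was tested for MAPK8, MAP3K11 and MAPK8IP1, the members with at least 20 counts in all wells compared. None of 51 tests passed. MAPK8 measured 1749 ± 373 bases (SD, n = 18) in DMSO wells and 1266 ± 42.5 bases (SD, n = 3) in miglitol 10000 nM, with an exact permutation p of 0.0075 and an adjusted p of 0.38. After adjustment for the GC slope the difference of -483 bases was -164 bases.

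Pyrazolanthrone, the JNK inhibitor, was compared with DMSO to see whether treatment with it was accompanied by a change of the transcripts of its target kinases. Whether the kinases were blocked in these wells was not measured. Neither MAPK8 nor MAPK9 passed at any dose, nor did a MAP2 or MAP3 kinase, although MAP2K4 at 100 nM did with the GC covariate (log2 -0.27 ± 0.09, adjusted p of 0.047). In edgeR 0, 0 and 1 of 8 members passed at 100 nM, 1000 nM and 10000 nM, against 4.77%, 0% and 7.65% of all genes. At an unadjusted p under 0.05 the counts were 4, 0 and 3 members, and DESeq2 called 0, 0 and 2. At 1000 nM edgeR called none of 18469 genes, with 1033 at an unadjusted p under 0.05 and 8 called by DESeq2.

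MAPK8 read 30.3 CPM, 29.5 CPM and 19.4 CPM at 100 nM, 66.4 CPM, 22 CPM and 25.7 CPM at 1000 nM and 61.5 CPM, 57.2 CPM and 41.7 CPM at 10000 nM, with 2 of the 9 wells below the DMSO range and the others inside it. Its log2 fold changes were -0.62 ± 0.29, -0.14 ± 0.31 and 0.33 ± 0.27. With the GC slope as covariate they shrank to -0.21 ± 0.08, 0.02 ± 0.08 and -0.08 ± 0.08. MAPK9, at -0.22 ± 0.15, -0.08 ± 0.14 and 0.08 ± 0.14, had values of -0.08 ± 0.07, -0.01 ± 0.07 and -0.10 ± 0.07 with the covariate.

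MAPK8IP1 was the member that passed at 10000 nM of pyrazolanthrone. Its wells read 43.7 CPM, 44.3 CPM and 46.7 CPM, all below the lowest of the 18 DMSO wells (52.8 CPM), and 52.5 CPM to 88.6 CPM at the lower doses. The log2 fold change was -0.64 ± 0.15 (adjusted p of 0.0086), and -0.41 ± 0.07 (0.0003) with the GC covariate. The call was lost without replicate 1 (adjusted p of 0.073), without replicate 2 (0.11) and with the mitochondrial scaling (log2 -1.06, 0.1). Against miglitol at the same dose MAPK8IP1 differed by -0.26 ± 0.08 (adjusted p of 0.059).

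Against miglitol, the other test of a matched dose, 0, 0 and 1 of 8 members passed at the 3 doses, against 0%, 0% and 14.5% of all genes, with 0, 0 and 3 at an unadjusted p under 0.05 and 0, 0 and 2 by DESeq2. The member was MAPK8IP3 at 10000 nM, with 14.5 CPM, 13.7 CPM and 14.7 CPM in pyrazolanthrone and 17.9 CPM, 20.5 CPM and 20.5 CPM in miglitol, a log2 difference of -0.45 ± 0.08 (adjusted p of 0.011). All 6 wells lay within the DMSO range. The call was lost without pyrazolanthrone replicate 2 or miglitol replicate 2. Over the 9 pyrazolanthrone wells 3 members had a dose trend, against 18.6% of all genes. These were MAP3K5 (0.40 ± 0.12 log2 per log10 unit of dose, adjusted p of 0.041), MAP3K11 (-0.37 ± 0.09, 0.029) and MAPK8IP1 (-0.36 ± 0.11, 0.047). No member passed with the GC covariate, without replicate 2 or without replicate 3, against 7 members without replicate 1. The GC slopes were 0.021 to 0.359 at 100 nM and -0.279 to -0.069 at 10000 nM, so dose and slope cannot be told apart.

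In miglitol no gene passed in edgeR against DMSO at any of the 3 doses. This is 0% of genes and 0 of 8 members, with 0, 0 and 5 members at an unadjusted p under 0.05 and 0 by DESeq2. Over all genes, 944, 1563 and 4195 had an unadjusted p under 0.05 and DESeq2 called 1, 120 and 3. Yet MAPK8 read 37.4 CPM, 19.5 CPM and 27 CPM at 100 nM and 65.2 CPM, 72.6 CPM and 60.9 CPM at 10000 nM, without overlap. Its dose trend of 0.61 ± 0.14 log2 per log10 unit of dose passed (adjusted p of 0.028), as did those of MAP2K4 (0.50 ± 0.15, 0.044) and MAP3K5 (0.33 ± 0.10, 0.047), against 15.9% of all genes. The GC slopes of the same wells were 0.014, 0.298 and 0.125 at 100 nM and -0.267, -0.340 and -0.225 at 10000 nM. They did not overlap, so dose and slope cannot be told apart in a fit that holds both. With the slope as covariate none of the 8 members and 0 of 17780 genes had a trend in edgeR (1524 at an unadjusted p under 0.05), and without replicate 1, 2 or 3 at all doses none of the members did.

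In nilotinib 3 members rose. At 100 nM MAP2K7 (34.4 CPM, 57 CPM and 56.8 CPM) and MAP3K11 (118 CPM, 192 CPM and 173 CPM) rose by log2 fold changes of 0.49 ± 0.14 (adjusted p of 0.029) and 0.48 ± 0.13 (0.021), with 2 of 3 wells above the DMSO range for each, against 9.08% of all genes. At 10000 nM MAP3K5 rose to 8.53 CPM, 7.53 CPM and 7.85 CPM, all above the highest DMSO well (6.93 CPM), by 0.74 ± 0.20 (0.013), against 14.4% of all genes. The calls at 100 nM were lost without replicate 2 or 3 (adjusted p of 0.21 to 0.34) and with library sizes as the only scaling, and that at 10000 nM without any 1 of the replicates (0.05 to 0.097) and with the mitochondrial scaling (log2 0.11). With the GC covariate the 3 values were 0.29, 0.30 and 0.52, and all passed. At 100 nM the GC slope of replicate 2 was 0.527, above the highest DMSO slope (0.315), so that adjustment reaches beyond the DMSO range. At 1000 nM no member passed (3.95% of genes, 0 members at an unadjusted p under 0.05 and 0 by DESeq2). No member had a dose trend in nilotinib (3.09% of genes in edgeR, 4 members at an unadjusted p under 0.05 and 3 by DESeq2) or in MK-2206 (0.028%, 1 member at an unadjusted p under 0.05 and 0 by DESeq2).

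MK-2206 changed no member by the main test (0.0648%, 1.52% and 3.15% of all genes at the 3 doses, 0, 1 and 1 members at an unadjusted p under 0.05, and 0 by DESeq2). MAPK8IP1 at 10000 nM, with 59.4 CPM, 44.1 CPM and 50.1 CPM, had a log2 fold change of -0.42 ± 0.15 (adjusted p of 0.18), and -0.46 ± 0.07 (3.6e-05) with the GC covariate. Over the 12 combinations of pyrazolanthrone, nilotinib, MK-2206 and miglitol, the mean size of the log2 fold change of MAPK8 was 0.35 without and 0.07 with the covariate. For MAP2K4 it was 0.34 and 0.08, for MAPK9 0.13 and 0.07, and for MAP3K11 0.22 and 0.12. For the scaffolds it hardly moved, from 0.21 to 0.18 for MAPK8IP1 and from 0.24 to 0.22 for MAPK8IP3.

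**Figure D5:**
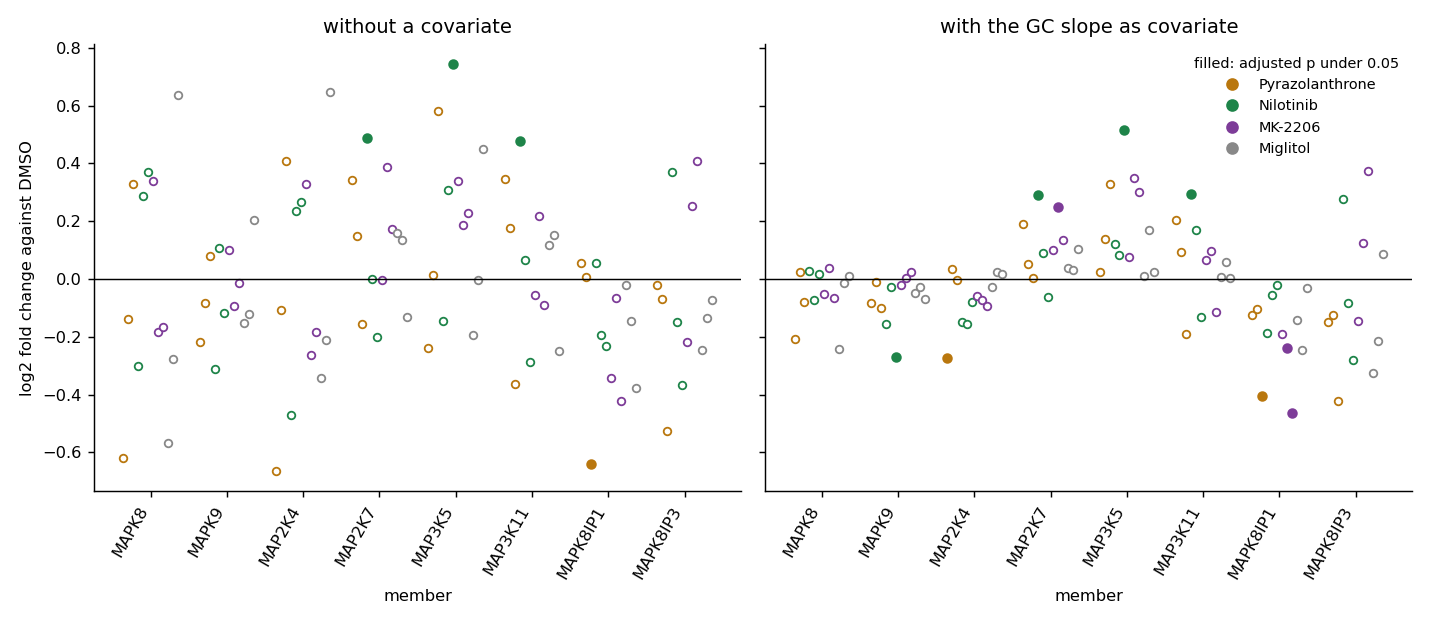
Log2 fold change against 18 DMSO wells for the 8 tested members in pyrazolanthrone, nilotinib, MK-2206 and miglitol, 3 doses each from low to high within a compound, without (left) and with (right) the GC slope of the library as a covariate. Filled points passed at an adjusted p under 0.05. The points of MAPK8 and MAP2K4 spread from -0.67 to 0.65 on the left and from -0.27 to 0.04 on the right.

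Other genes of the cascade were read from 9 lists made by function, of which 76 genes were tested. At 10000 nM of triptolide 27 of them rose and 38 fell, against 32.2% and 39.7% of all genes, and at 10000 nM of homoharringtonine 37 rose and 28 fell, against 36.7% and 37.2%. In triptolide, of 10 JNK substrates 3 rose and 6 fell, with a median log2 fold change of -1.03 against -0.17 over all genes. JUN, which encodes c-Jun, fell from 124 ± 30.2 CPM (SD, n = 18) in DMSO to 1.70 CPM to 2.13 CPM (log2 -6.10 ± 0.30, adjusted p of 3.3e-15). BMF, a pro-apoptotic BH3-only gene, had a DMSO mean of 3.95 CPM and at most 0.0363 CPM in these wells (adjusted p of 1.9e-08). STMN1, which encodes the microtubule regulator stathmin, and HSF1, the heat shock factor, rose by 1.13 ± 0.20 and 1.05 ± 0.11.

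Homoharringtonine at 10000 nM moved JUN the other way, to between 769 CPM and 969 CPM (log2 2.80 ± 0.15, adjusted p of 3e-14). Of the 10 substrates 4 rose and 4 fell, with a median of 0.08 against -0.05 over all genes. ITCH, an E3 ubiquitin ligase, rose by 1.86 ± 0.17, IRS1, the insulin receptor substrate, fell by 2.99 on the log2 scale (SE 0.12), and HSF1 fell by 1.63 (SE 0.12). With the GC covariate the value of ITCH was 1.08.

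Of 6 genes listed as JNK phosphatases, which need not all act on the pathway in the same direction, 5 were tested. In triptolide 10000 nM 1 rose and 4 fell (median -3.16), whereas in homoharringtonine 10000 nM 4 rose and 1 fell (median 1.53). DUSP1, a dual-specificity phosphatase, had a DMSO mean of 21.1 CPM, at most 0.396 CPM in triptolide (log2 -5.98 ± 0.21) and 79.9 CPM to 95.9 CPM in homoharringtonine (2.01 ± 0.09). DUSP10 had values of -4.49 ± 0.22 and 2.07 ± 0.10. DUSP22 had a rise of 0.35 ± 0.10 (adjusted p of 0.0028) in triptolide and a fall of 1.44 (SE 0.11) in homoharringtonine.

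Of 13 adaptors and regulators 12 were tested. In triptolide 10000 nM 4 rose and 7 fell (median -2.30), the falls led by GADD45B (-5.66 ± 0.25), whose product binds MAP2K7 and blocks its activity, and TRAF6 (-4.99 ± 0.31), a ubiquitin ligase of receptor signalling. TXN (1.46 ± 0.23), which encodes thioredoxin, a binder of MAP3K5, and TAB3 (1.13 ± 0.19), an adaptor of the kinase TAK1, rose most. In homoharringtonine 7 rose and 2 fell (median 0.85). GADD45A rose from 29.3 ± 11.6 CPM (SD, n = 18) to between 323 CPM and 329 CPM (3.53 ± 0.15, adjusted p of 5.7e-16), GADD45B rose by 2.27 ± 0.10, and TAB1 (-1.10 ± 0.13, with the GC covariate -0.67) and DAXX (-0.70 ± 0.13, with the covariate -0.32) fell.

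The upstream kinases were mixed. Of 15 other MAP3 kinases 4 rose and 10 fell in triptolide 10000 nM (median -0.75), and 8 rose and 5 fell in homoharringtonine 10000 nM (median 0.25). MAP3K1, which encodes MEKK1, fell in triptolide from 17.4 ± 3.80 CPM to between 0.356 CPM and 1.07 CPM (-4.85 ± 0.32) and rose in homoharringtonine (1.03 ± 0.16, with the GC covariate 0.37). MAP3K9, a mixed-lineage kinase like MAP3K11, fell by 3.67 (SE 0.10) in triptolide, while MAP3K20 (1.32 ± 0.14), the ribotoxic stress kinase ZAK, and MAP3K10 (0.43 ± 0.17) rose. In homoharringtonine MAP3K7, the kinase TAK1, rose by 1.80 ± 0.15, and MAP3K6 (-2.15 ± 0.15) and MAP3K12 (-1.39 ± 0.14) fell.

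Of 7 MAP4 kinases, the tier above, 2 rose and 3 fell in triptolide (median 0.47) and 3 rose and 4 fell in homoharringtonine (median -0.46). MAP4K2 rose by 1.48 ± 0.11 and MAP4K4 by 0.64 ± 0.08 in triptolide, while MAP4K3 fell by 2.47 (SE 0.33) and MINK1 by 0.60 (SE 0.13). In homoharringtonine MAP4K3 (1.51 ± 0.23, with the GC covariate 0.49) and the scarce MAP4K1 (1.29 ± 0.36) rose, and MINK1 (-1.84 ± 0.15) and MAP4K4 (-1.01 ± 0.10) fell.

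Among 8 other scaffolds 5 rose and 3 fell in homoharringtonine 10000 nM (median 0.84). SPAG9, which encodes JIP4, the closest relative of JIP3, rose from 134 ± 26.5 CPM (SD, n = 18) to between 691 CPM and 783 CPM (2.40 ± 0.13, adjusted p of 6.3e-14), beside the rise of MAPK8IP3. MAPK8IP2, which encodes JIP2, rose from 0.243 CPM to 1.52 CPM (2.59 ± 0.33), SH3RF3 (-1.63 ± 0.11) and FLNA (-1.07 ± 0.11), the actin crosslinker filamin A, fell. In triptolide 2 rose and 4 fell (median -0.08), with FLNA (1.16 ± 0.10) and ARRB2 (0.73 ± 0.13) higher and SH3RF3 (-2.13 ± 0.12) and SH3RF1 (-1.79 ± 0.14) lower.

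Of 7 kinesin-1 genes, whose motor carries JIP scaffolds, 5 rose and 0 fell in triptolide 10000 nM (median 0.36), led by KLC3 (0.89 ± 0.26) and KLC2 (0.88 ± 0.13). KLC3 was scarce, with 0 to 2.2 CPM in DMSO, 1.54 CPM to 2.22 CPM in triptolide and 3.07 CPM to 3.46 CPM in homoharringtonine. In homoharringtonine 2 rose, KLC3 (1.72 ± 0.23) and KLC4 (0.82 ± 0.12, with the GC covariate 1.28), and 2 fell, KIF5A (-1.48 ± 0.14) and KIF5C (-1.26 ± 0.10), with a median of 0.11. All rises named in these lists in triptolide, up to 1.48, are smaller than the shift of -2.75 that the mitochondrial scaling gives the median gene.

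Of 6 genes of the p38 module, a sister cascade, 2 rose and 2 fell in triptolide 10000 nM (median -0.09), with MAPK14, p38 alpha, at -3.17 ± 0.18, MAP2K3 at -1.49 ± 0.13, MAPK11 at 0.90 ± 0.11 and MAPK12 at 0.83 ± 0.12. In homoharringtonine 2 rose and 3 fell (median -0.03), with MAP2K3 at 1.12 ± 0.10, MAP2K6 at -1.90 ± 0.31, MAPK12 at -1.01 ± 0.13 and MAPK14 at 0.32 ± 0.12, the last -0.05 with the GC covariate. Of 6 genes of the ERK module 4 rose and 2 fell in triptolide (median 0.32), with MAPK3, ERK1, at 1.48 ± 0.11, MAP2K2 at 0.64 ± 0.14, MAPK7 at -2.16 ± 0.15 and MAP2K5 at -0.82 ± 0.09. In homoharringtonine 2 rose and 4 fell (median -0.26), with MAPK7 at 0.24 ± 0.10, MAPK3 at -0.68 ± 0.13 and MAP2K2 at -0.45 ± 0.14. With the GC covariate MAPK7 was at 0.56, MAPK3 at -0.24 and MAP2K2 at 0.10.

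In pyrazolanthrone 10000 nM, 9 of the 76 genes passed, 1 higher and 8 lower, which is 11.8% against 7.65% of all genes.

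Markers of cell type moved beside these genes. The summed level of the 8 osteoblast markers was 1770 TPM to 3500 TPM in DMSO wells, 3830 TPM to 5110 TPM in triptolide 10000 nM and 271 TPM to 337 TPM in homoharringtonine 10000 nM. In DMSO wells this sum was mostly SPARC and COL1A1, with medians of 2137 TPM and 452 TPM. TPM is relative, and the mitochondrial scaling shifted the median of all tested genes by -2.75 log2 in triptolide 10000 nM. Of 6 osteoblast markers tested, 4 rose and 1 fell in triptolide, against 32.2% and 39.7% of all genes. In homoharringtonine 0 rose and 4 fell, against 36.7% and 37.2%. The summed level of the 8 markers of other cell types was 10.9 TPM to 27.6 TPM in DMSO, 12 TPM to 15.3 TPM in triptolide 10000 nM and 81.1 TPM to 82.8 TPM in homoharringtonine 10000 nM, with 4 of 6 and 4 of 7 tested markers higher and 0 and 1 lower. In DMSO wells the neuronal marker SYP and the epithelial marker EPCAM were the most abundant of them. Which markers made up the higher sum in homoharringtonine is not given here. The part of these shifts in the results was not tested.

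The genes whose pattern was most like that of each member were found over the 19 group means of log2 CPM, among 9370 other protein-coding genes (9371 for MAP3K5) with a mean of at least 10 CPM, as a description without a test. For MAPK8 they were MAP4K5 (r of 0.978), itself a kinase of the MAP4K list, and GTF2H3 (0.976). For MAPK9 they were EFEMP1 (0.981) and CTSC (0.98), for MAP2K4 DENND4A and CRYBG3 (both 0.991), and for MAP2K7 TRAPPC12 (0.996) and MTHFSD (0.995). For MAP3K5 they were UBE2R2 (0.968) and FZD4 (0.966), for MAP3K11 MKNK2 (0.991) and PPARD (0.975), for MAPK8IP1 ATAD3A (0.933) and EPS8L2 (0.929), and for MAPK8IP3 PLXNA3 (0.916) and PIGG (0.914). The points share libraries and their base composition.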

How the data were processed

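Total RNA from 72 wells of U2OS cells in 24-well plates was prepared as stranded poly(A) libraries. The authors quantified reads with RSEM on GRCh38 and deposited, for each gene, expected counts, TPM and FPKM with transcript lengths. The RSEM version, annotation release and strand setting are not given in the sources used here. The submitters' processing notes also name HTSeq and DESeq2. FPKM was not used. The labels give the middle dose as 1000 nM, which was followed.

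Expected counts were rounded and tested with edgeR 4.0.16 (quasi-likelihood, TMM factors, filterByExpr with a minimum of 10) in R 4.3.3. Each compound and dose was fitted with the 18 DMSO wells, pairs of compounds with their own wells, and dose trends on log10 dose over 9 wells. P-values were adjusted by Benjamini-Hochberg over all genes tested, with 0.05 as threshold. SE was the log2 fold change over the root of the F statistic. Levels in CPM use TMM factors over all wells. DESeq2 1.42.0 was an alternative. Ratios and lengths were tested by exact two-sided permutation (scipy 1.17.1). The fits were tested on simulated data. Of 60371 genes, 56104 had a GENCODE release 44 symbol. Gene lengths and shared reads among related kinases depend on the RSEM estimate.

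The members and lists were chosen with earlier results of these data known. All members are named. In the lists, the 2 largest rises and falls that passed at 10000 nM of triptolide and of homoharringtonine are named, and for likeness the 2 highest correlations. A gene that this rule names is not reported here. The GC slope and the inferred fragment length of a library were added as covariates after seeing the data. No 2 wells had identical values. Same-numbered wells of a compound and of DMSO did not deviate together over all genes with a mean of at least 10 CPM. The mean correlation was -0.062 for 52 pairs, against 0.025 for 104 pairs of unlike number. The numbers were therefore not taken to pair compound wells with DMSO wells. Same-numbered wells of different compounds were not compared, so a pairing between compounds was not tested, and they were fitted without pairing. Depth sets the counting error.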

Additional observations from a re-analysis of the deposited data

Results flagged for a closer look

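The dose trends of 3 members differed between triptolide and homoharringtonine when the difference itself was tested over the 18 wells of both compounds. For MAP3K11 the triptolide trend minus the homoharringtonine trend was -1.26 log2 per log10 unit of dose, from trends of -1.18 and 0.13. For MAPK8IP3 it was -1.20, from -0.40 and 0.85, and for MAPK8IP1 it was 0.53, from 0.39 and -0.09. With the GC slope as covariate the differences were -1.40, -1.35 and 0.42 and all passed. With the mitochondrial scaling they were -1.73, -1.65 and 0.09, and the last did not pass. The call for MAPK8IP1 was also lost with DESeq2 size factors (adjusted p of 0.087), with library sizes only (0.16) and without replicate 1, 2 or 3 at all doses (0.05, 0.09 and 0.23) in edgeR.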

How the results depend on the processing

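Size factors of DESeq2 in edgeR kept the number of members that passed within 1.5 times in all 31 comparisons, and the mitochondrial scaling did so in 24, DESeq2 in 26 and the GC covariate in 17. Except where given in the report, the cause of a change was not tested. Where the GC slopes did not overlap between the groups or doses compared, the GC covariate cannot be told apart from them. With the mitochondrial scaling the count was 0 for pyrazolanthrone 10000 nM, 1 for nilotinib 100 nM, 5 for nilotinib 10000 nM, 0 for pyrazolanthrone against miglitol at 10000 nM, and 0, 5 and 5 for the trends of homoharringtonine, nilotinib and miglitol. It reversed MAPK9 in triptolide (-0.89, -1.08 and -1.22 with rising dose), MAP3K11 (-1.16) and MAPK8IP3 (-0.59) at 100 nM, MAPK8 (-1.50 and -1.84) and MAPK8IP1 (-1.87 and -2.24) at the higher doses, the MAPK9 trend (-0.16), MAP2K7 in homoharringtonine 10000 nM (-0.04) and the miglitol trend of MAP3K5 (-0.10). Of triptolide against homoharringtonine it reversed MAPK9 (-0.42, -0.65 and -0.81), MAPK8IP3 at 100 nM (-0.66), MAPK8IP1 at 1000 nM (-1.88) and 10000 nM (-1.60) and MAPK8 at 10000 nM (-2.13), the last also -0.12 with library sizes only.

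With the GC covariate the count was 8 for homoharringtonine 10000 nM, 1 for pyrazolanthrone 100 nM, 2 for nilotinib 10000 nM, 2 and 1 for MK-2206 1000 nM and 10000 nM, 3 and 4 for triptolide against homoharringtonine at 100 nM and 10000 nM, 2 for pyrazolanthrone against miglitol at 10000 nM, 4, 0, 1, 2 and 0 for the trends of homoharringtonine, pyrazolanthrone, nilotinib, MK-2206 and miglitol, and 7 for the difference of trends. It reversed MAP2K4 in homoharringtonine 1000 nM (-0.02) and 10000 nM (-0.31), MAPK8 in triptolide against homoharringtonine at 100 nM (0.13) and the miglitol trend of MAP2K4 (-0.0023). With it 7 combinations passed for MAP2K7 to MAP2K4 and 4 for MAPK8IP3 to MAPK8IP1, and with expected counts in place of TPM 1 passed for MAPK9 to MAPK8. With the inferred fragment length as covariate the count was 3 for pyrazolanthrone 10000 nM, 2 for MK-2206 10000 nM, and 1, 0, 3 and 0 for the trends of triptolide, pyrazolanthrone, nilotinib and miglitol.

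DESeq2 gave 2 for pyrazolanthrone 10000 nM, 2 for pyrazolanthrone against miglitol at 10000 nM, and 6, 3 and 5 for the trends of pyrazolanthrone, nilotinib and miglitol. Library sizes only gave 0 for nilotinib 100 nM, 2 for pyrazolanthrone against miglitol at 10000 nM and 2 for the homoharringtonine trend. No filter on low counts gave 1, 3 and, for the pyrazolanthrone trend, 5. At least 10 counts in every well gave 3 for homoharringtonine 10000 nM and 0 for nilotinib 10000 nM, where fewer members were tested, and no value where triptolide 100 nM was compared.

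The replicate number was also used as a block, over wells not known to share more than a number. It gave 6 for pyrazolanthrone 10000 nM, 0 and 4 for nilotinib 100 nM and 10000 nM, and 7 for miglitol 10000 nM. For pyrazolanthrone against miglitol at 10000 nM it gave 3, and for the trends of triptolide, pyrazolanthrone and nilotinib 1, 6 and 4. In the fits against DMSO it keeps DMSO wells 1 to 3 only. No combination had all 3 same-numbered pairs with DMSO wells correlated over 0.1.

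Leaving out 1 replicate gave counts of 0 to 2 for pyrazolanthrone 100 nM, 0 to 1 for pyrazolanthrone 10000 nM, 0 to 4 for nilotinib 100 nM, 0 to 0 for nilotinib 10000 nM, 0 to 2 for pyrazolanthrone against miglitol at 10000 nM, and 1 to 1, 0 to 7, 0 to 3 and 0 to 0 for the trends of triptolide, pyrazolanthrone, nilotinib and miglitol. For the MAPK8IP3 to MAPK8IP1 ratio it was 0 to 0, where a ratio can pass only if many tests share the smallest p.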
